A study of Glycine max with 8 samples.

Results

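The genes described here are 9 soybean (Glycine max) genes at the top of symbiotic signalling: the Nod factor receptors NFR1a, NFR1b and NFR5a, 2 copies of the symbiosis receptor kinase SymRK, and the GRAS-type transcription factors NSP1 and NSP2, each as a pair of copies. They were chosen by identifier, and the names are those that came with that choice. Values were at hand for 8 of the 9, out of 43517 genes in the count table: all 5 receptor kinases and 3 of the 4 GRAS factors. The NSP2 copy Glyma.06G110800.Wm82.a2.v1 was not analysed here. RNA came from nodules, the root organs in which legumes house nitrogen-fixing rhizobia, of plants kept at low nitrogen. In group R the plants had been inoculated with the strain labelled Bra.Q2 alone, and in group BR with Bra.Q2 and a further strain labelled Bac.B, so that Bra.Q2 and low nitrogen are common to both. Each group held 4 libraries, numbered 1 to 4 (BR1, R1 and so on). The labels give no cultivar, plant age or nodule age and do not say whether a library pooled several plants or came from a plant of its own. The p-values below therefore speak only of variation among these 8 libraries, part of which may be technical.

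Rhizobia announce themselves to a legume root with Nod factors, which are decorated chitin oligomers. In Lotus japonicus and soybean, NFR1 and NFR5 are LysM receptor kinases of the cell surface that perceive them, and SymRK, a receptor kinase with leucine-rich repeats, is needed downstream for the calcium signals in the nucleus that rhizobia and mycorrhizal fungi both elicit. In Medicago truncatula and Lotus japonicus, NSP1 and NSP2 act after those calcium signals as partner GRAS proteins that switch on early nodulation genes. Soybean descends from a genome duplication, and many of its genes, including those described here, exist as pairs of homeologous copies.

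Library totals ran from 15133989 to 17287964 counts in BR and from 14223489 to 15266510 in R. Over the 29508 tested genes, log2 CPM (counts scaled to a common total) correlated at 0.955 to 0.981 among BR libraries and at 0.903 to 0.975 among R libraries. In R the libraries fell into the pairs R1 with R2 (0.968) and R3 with R4 (0.975), and R2 and R4 were the least alike. Between BR and R libraries the correlations were 0.889 to 0.937, so they overlapped those within R. R2 correlated at 0.908 to 0.931 with the BR libraries, against 0.910 with R3 and 0.903 with R4. Taken against the average library, log2 CPM changed with log2 gene length at a slope of 0.142 in R3 and 0.148 in R4, -0.148 in BR1 and between -0.0659 and 0.0142 in the other 5. Fold changes and ratios below are given with and without R3 and R4 where these libraries move them.

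The 8 genes spanned levels from among the more abundant nodule transcripts to near absence, and neither signalling step was uniformly high or low. In FPKM, which scales counts to gene length and library total and so allows genes to be compared, the order of the means over 8 libraries was the NSP1 copy on chromosome 16 (34.5), SymRK on chromosome 9 (28.1), SymRK on chromosome 1 (17.0), the NSP1 copy on chromosome 7 (3.96), NFR1a (0.578), the NSP2 copy on chromosome 4 (0.342), NFR5a (0.123) and NFR1b (0.0124). Of the 39910 genes with an FPKM, 92.4% had a mean at or below that of NSP1 on chromosome 16, 90.8% at or below SymRK on chromosome 9 and 85.4% at or below SymRK on chromosome 1. The share was 30.1% for NFR1a, 24.7% for NSP2, 15.98% for NFR5a and 3.64% for NFR1b. SymRK, which acts next to the Nod factor receptors, was thus among the higher transcripts of the nodule while NFR1a, NFR1b and NFR5a were low.

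Not all neighbours in that order were separate. NSP1 on chromosome 16 exceeded SymRK on chromosome 9 in 7 of 8 libraries, and their ranges overlapped. The steps from SymRK on chromosome 9 to SymRK on chromosome 1, from there to NSP1 on chromosome 7, and on to NFR1a each held in 8 of 8 libraries without overlap. NFR1a exceeded NSP2 in 6 of 8 libraries, NSP2 exceeded NFR5a in 7 of 8 and NFR5a exceeded NFR1b in 7 of 8, all with overlapping ranges. In R3 and R4 NFR5a had more counts than NFR1a (6 and 14 against 2 and 2), with NFR1a under a floor of 3 counts. The exact Poisson 95% intervals of these counts, which cover counting error only, overlapped in R3 and did not overlap in R4. A reversed order of NFR1a and NFR5a was thus beyond counting error in R4 and not shown in R3.

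**Figure D1:**
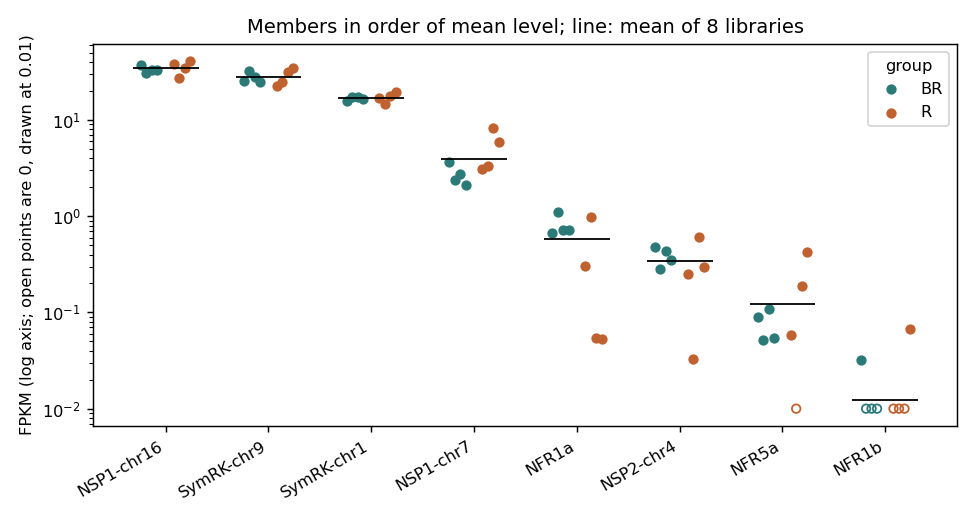
FPKM of the 8 genes in each library on a log axis, in order of the mean over 8 libraries (black line), with BR in green and R in orange. NSP1 on chromosome 16 and both SymRK copies lie above 14 FPKM in every library, whereas the Nod factor receptors and NSP2 lie near or below 1 FPKM; open points are values of 0.

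The comparison of BR with R asks how these transcripts differed when Bac.B was added to Bra.Q2. Of the 8 genes, 6 passed the filter on low counts and 1 of these 6 was called: NSP1 on chromosome 7 was lower in BR. Over all 29508 tested genes 18.3% were called, with 7.98% higher and 10.3% lower in BR (quasi-likelihood F test of edgeR, threshold 0.05 on the p adjusted by Benjamini and Hochberg), so that 1 of 6 is near the background. None of the receptor kinases tested, NFR1a and both SymRK copies, was called, and these are too few to set against that share. NFR1b and NFR5a failed the filter and were not tested. In these bulk samples a change in the number of cells that express a gene and a change in RNA per cell cannot be told apart.

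NFR1a (Glyma.02G270800.Wm82.a2.v1, chromosome 2), the LysM kinase of the Nod factor receptor pair, had the widest spread among R libraries of the 6 tested genes. In BR it was at 0.663, 1.12, 0.722 and 0.720 FPKM in BR1 to BR4, from 26, 50, 31 and 31 counts. In R it was at 0.303, 0.989, 0.0543 and 0.0526 FPKM in R1 to R4, from 12, 38, 2 and 2 counts. R1, R3 and R4 lay below all BR libraries, while R2 lay inside the BR range in FPKM, so the groups overlapped. After the trimmed-mean (TMM) scaling of the test R2, at 2.74 CPM, was just above the highest BR library, BR2 at 2.72 CPM. The exact Poisson 95% intervals, which cover counting error only, were 0.242 to 7.23 counts in R3 and in R4, 6.20 to 21.0 in R1 and 26.9 to 52.2 in R2. That of R1 overlapped those of R3 and R4, and that of R2 overlapped none of the other R libraries.

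The log2 fold change of NFR1a, BR over R, was 1.00 (SE 0.73, 95% interval -0.62 to 2.62; edgeR adjusted p = 0.362), which did not pass. With all 8 libraries it was 1.85 by limma-voom (adjusted p = 0.0895), 1.56 with the replicate block in edgeR (adjusted p = 0.141), and 0.46 with limma on log2(FPKM + 1) (adjusted p = 0.12), none of which passed. The outcome rested on R2. Without R2 the log2 fold change was 2.32 and passed (edgeR adjusted p = 0.0193), without R1 and R2 it was 3.68 (adjusted p = 0.00191), and without R3 and R4 it was 0.15 (adjusted p = 0.867). R2 held the highest R count and R3 and R4 the lowest, so leaving R2 out had to widen the difference. These values show dependence on single libraries and are not evidence of a difference between the groups. The SD of its log2 CPM was 1.64 among R libraries, at or above that of 98.9% of tested genes, and 0.33 among BR libraries, at or above 64.1%.

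NFR1b (Glyma.14G046200.Wm82.a2.v1, chromosome 14), the second copy of that receptor, was near absence. It had 1 count in BR1, 2 in R4 and 0 in the other 6 libraries. A count of 0 allows up to 0.0848 to 0.103 FPKM, taking 3 counts as the floor in each of those libraries. All 8 values were under the floor of their library, and a difference between the groups was not detectable at this depth. Of the counts of the NFR1 pair, 192 fell on NFR1a and 3 on NFR1b.

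NFR5a (Glyma.11G063100.Wm82.a2.v1, chromosome 11), a LysM kinase that pairs with NFR1 and lacks an active kinase of its own, had 3, 2, 4 and 2 counts in BR1 to BR4 against 2, 0, 6 and 14 in R1 to R4. R4, at 0.429 FPKM, and R3, at 0.190 FPKM, were the highest, while R1, at 0.0590, lay inside the BR range of 0.0521 to 0.109 FPKM. Group sums were 11 counts in BR (exact Poisson 95% interval 5.49 to 19.7) and 22 in R (13.8 to 33.3). It failed the filter on low counts. Without that filter its log2 fold change was -1.30 (SE 0.91, 95% interval -3.28 to 0.69; edgeR adjusted p = 0.38 over 39910 genes). Its direction rested on R3 and R4: without them, and still without the filter, it was 1.06 (adjusted p = 0.639), and without R1 and R2 it was -2.18 (adjusted p = 0.0399), both chosen after seeing the data.

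**Figure D2:**
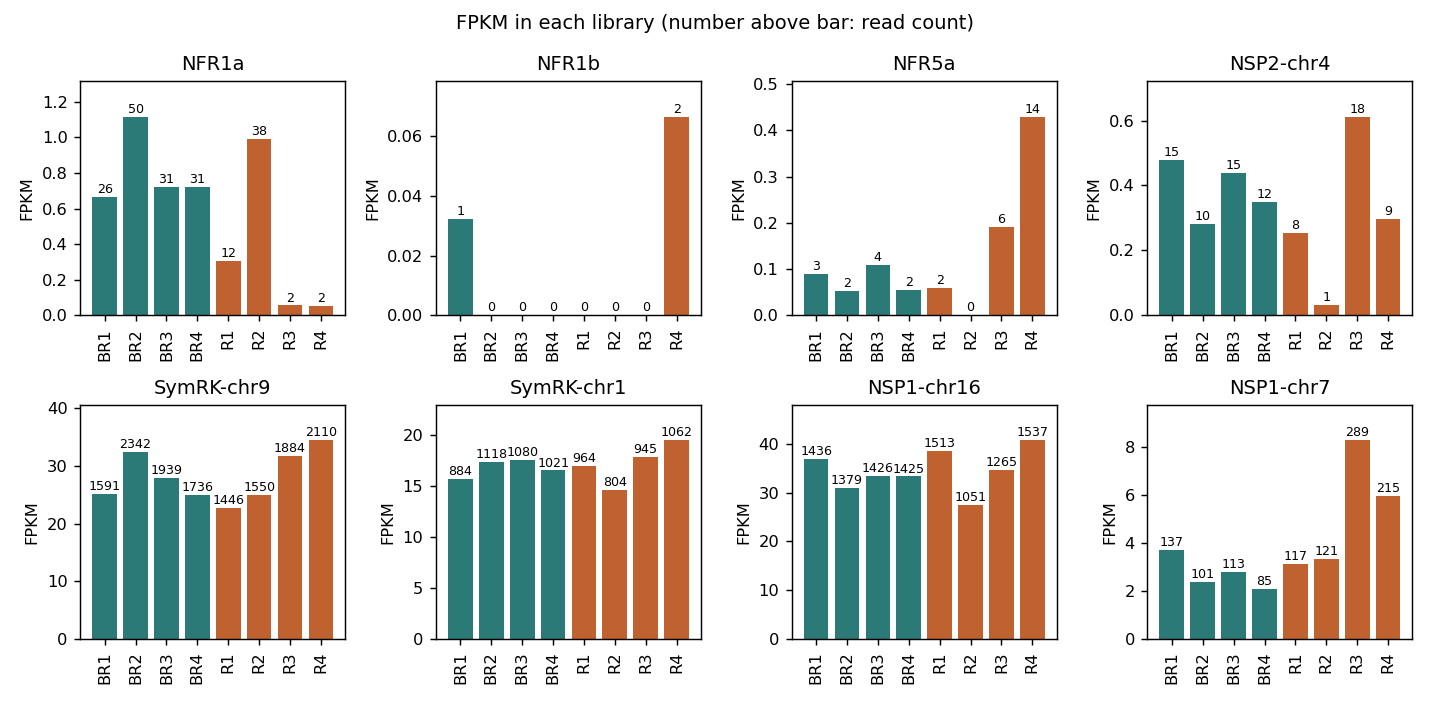
FPKM of each gene in each library, with BR in green, R in orange and the read count above each bar; every panel has its own linear axis from 0. NFR1a drops to 2 counts in R3 and R4, where NSP1 on chromosome 7 has its highest counts, 289 and 215, and both SymRK copies and NSP1 on chromosome 16 vary far less.

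Neither SymRK copy differed clearly between BR and R. In FPKM both copies were higher in R3 and R4 than in R1 and R2, the chromosome 1 copy by less. On chromosome 9 (Glyma.09G202300.Wm82.a2.v1) the values were 25.2, 32.5, 28.0 and 25.0 FPKM in BR1 to BR4 against 22.7, 25.0, 31.7 and 34.4 in R1 to R4. On chromosome 1 (Glyma.01G020100.Wm82.a2.v1) they were 15.7, 17.4, 17.5 and 16.5 FPKM in BR and 17.0, 14.6, 17.8 and 19.4 in R. The groups overlapped for both copies, and for both R4 was the highest library.

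The log2 fold change was -0.23 (SE 0.17, 95% interval -0.61 to 0.14; edgeR adjusted p = 0.354) for the chromosome 9 copy and -0.23 (SE 0.13, 95% interval -0.52 to 0.057; edgeR adjusted p = 0.237) for the chromosome 1 copy. As folds the intervals run from 0.657 to 1.10 and from 0.697 to 1.04, so neither reaches a halving or a doubling. Without R3 and R4 the log2 fold changes were 0.027 and -0.10 (edgeR adjusted p = 0.937 and 0.697). Without R1 and R2 they were -0.42 and -0.32 (edgeR adjusted p = 0.0769 and 0.104). Scaling by total counts instead of TMM (the trimmed-mean factors of the test) moved the median gene upward by 0.19 on the log2 scale and gave -0.041 and -0.037 for the copies. Removing the length trend of each library, which these long transcripts of 4174 and 3725 bases could follow, gave -0.10 and -0.13. The chromosome 1 copy was the steadiest of the tested genes described here in BR, with an SD of log2 CPM of 0.057 among BR libraries, a value that only 1.89% of all tested genes did not exceed.

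NSP1 on chromosome 7 (Glyma.07G039400.Wm82.a2.v1) was the gene called lower in BR. Its values were 3.69, 2.38, 2.78 and 2.09 FPKM in BR1 to BR4, from 137, 101, 113 and 85 counts. They were 3.13, 3.33, 8.29 and 5.98 FPKM in R1 to R4, from 117, 121, 289 and 215 counts. R3 and R4 stood above all other libraries, while R1 and R2 lay below BR1 in FPKM, so the groups overlapped. After TMM scaling BR1, at 8.65 CPM, still exceeded R1, at 8.39 CPM, and fell short of R2, at 8.72 CPM. Across all tested genes 24.5% had groups that did not overlap, 13.1% being lower in BR.

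Its log2 fold change was -1.11 (SE 0.32, 95% interval -1.82 to -0.39), or a fold of 0.464 (edgeR adjusted p = 0.0402). The call was near the threshold and rested on several libraries: the adjusted p was 0.0873 without BR2, 0.0951 without BR3, 0.107 without BR4, 0.0974 without R3 and 0.0946 without R4. Without R3 and R4 the log2 fold change was -0.43 (adjusted p = 0.297), and without R1 and R2 it was -1.55 (adjusted p = 0.00234). Since R3 and R4 held its highest values, these omissions show dependence on libraries only. It was also not called by limma-voom (-1.03, adjusted p = 0.0518), with total-count scaling (-0.92, adjusted p = 0.0714) or in the fit with replicate number as a block (-1.04, adjusted p = 0.0727). It was lower in BR in the 21 alternatives run.

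NSP1 on chromosome 16 (Glyma.16G008200.Wm82.a2.v1), the copy that carried most of the NSP1 transcript, had 36.9, 31.0, 33.4 and 33.3 FPKM in BR1 to BR4 against 38.5, 27.5, 34.6 and 40.7 FPKM in R1 to R4. R2 was the lowest and R4 the highest of the 8 libraries, and the BR values lay between them. Its log2 fold change was -0.26 (SE 0.15, 95% interval -0.61 to 0.080; edgeR adjusted p = 0.257), and with total-count scaling -0.070.

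NSP2 on chromosome 4 (Glyma.04G251900.Wm82.a2.v1), the partner of NSP1, was low. The BR libraries held 15, 10, 15 and 12 counts of it, and R1 to R4 held 8, 1, 18 and 9. R3 was the highest library at 0.612 FPKM and R2 the lowest at 0.0326 FPKM, so that R enclosed the BR range of 0.280 to 0.479 FPKM. The log2 fold change was 0.18 (SE 0.59, 95% interval -1.14 to 1.5; edgeR adjusted p = 0.858). Both size and sign moved with the R libraries: the log2 fold change was -0.18 without R2, -0.40 without R1 and R2, 0.77 without R3 and 1.20 without R3 and R4 (adjusted p from 0.305 to 0.785, none passing). It was 0.60 by limma-voom and 0.40 with the replicate block. As a fold the interval ran from 0.454 to 2.84, on 88 counts in all and with an SD of log2 CPM of 1.20 among R libraries.

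**Figure D3:**
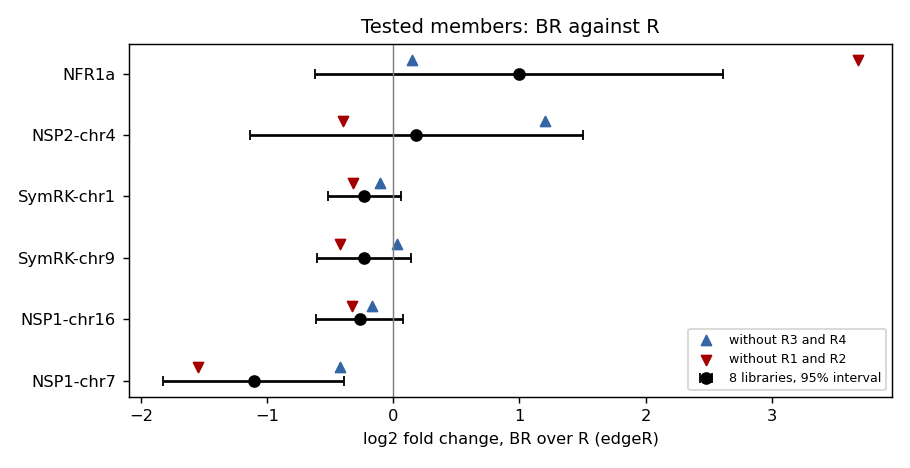
Log2 fold change of BR over R for the 6 tested genes with its 95% interval from edgeR (black), and the value without R3 and R4 (blue) or without R1 and R2 (red). NFR1a moves from 0.15 to 3.68 and NSP1 on chromosome 7 from -0.43 to -1.55 between these settings; the interval of NSP1 on chromosome 7 alone leaves out 0.

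Receptor kinases and the GRAS factors with values (3 of the 4 listed) were present at similar summed levels. The 5 receptor kinases summed to 45.3 ± 4.31 FPKM in BR and 46.2 ± 7.08 in R, and the 3 GRAS factors to 36.8 ± 3.11 and 40.8 ± 6.94 (SD, n = 4). In each library these sums were nearly those of a few genes. SymRK made up 97.6% to 99.5% of the receptor sum, and NSP1 on chromosome 16 made up 79.5% to 93.2% of the GRAS sum, with the minimum in R3.

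The log2 ratio of the receptor sum to the GRAS sum was 0.021, 0.60, 0.34 and 0.24 in BR1 to BR4 against -0.067, 0.39, 0.20 and 0.21 in R1 to R4. The groups overlapped, with BR1 and R1 lowest in each. The means were 0.30 ± 0.24 and 0.18 ± 0.19 (SD, n = 4), a difference of 0.12 that was smaller than either SD; being a sum over chosen genes it was not tested. The 3 most abundant members, both SymRK copies and NSP1 on chromosome 16, had log2 fold changes within -0.26 to -0.23, and none was called. With total-count scaling the values were -0.041 for SymRK on chromosome 9, -0.037 for SymRK on chromosome 1 and -0.070 for NSP1. Without R3 and R4 they were 0.027, -0.10 and -0.17 in the same order. NFR1a, NFR1b and NFR5a alone summed to 0.785, 1.17, 0.830 and 0.774 FPKM in BR1 to BR4, against 0.362, 0.989, 0.244 and 0.549 in R1 to R4. R2 was the only R library inside the BR range. Different genes carried this sum: in R3 and R4 most of it was NFR5a (0.190 and 0.429 FPKM), and in the other libraries NFR1a.

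Homeolog balance differed between the gene pairs. The chromosome 9 copy of SymRK gave 64.3%, 67.7%, 64.2% and 63.0% of the counts of the pair in BR1 to BR4 against 60.0%, 65.8%, 66.6% and 66.5% in R1 to R4. R1 was the lowest, with a Wilson 95% interval of 58.0% to 61.9%, and BR2 the highest, with 66.1% to 69.2%. Per length, the chromosome 9 copy was 1.34 to 1.87 times the chromosome 1 copy in every library.

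The chromosome 16 copy of NSP1 gave 91.3%, 93.2%, 92.7% and 94.4% of the counts of its pair in BR1 to BR4 against 92.8%, 89.7%, 81.4% and 87.7% in R1 to R4. R3 had the most even pair, with a Wilson 95% interval of 79.4% to 83.3%, followed by R4 with 86.1% to 89.2%. R1 lay within the BR range and R2 just below it. Per length the chromosome 16 copy was 9.98 to 15.97 times the chromosome 7 copy in BR and 4.17 to 12.3 times in R.

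A ratio within a library does not depend on how libraries are scaled. For SymRK the mean log2 ratio of the copies was 0.72 ± 0.13 in BR and 0.72 ± 0.20 in R (SD, n = 4), a difference of 0.0017 (SE 0.12; exact two-sided permutation test, p = 1). For NSP1 it was 3.65 ± 0.28 in BR and 2.87 ± 0.65 in R, a difference of 0.78 (SE 0.35; exact two-sided permutation test, p = 0.0857, and 0.171 after Benjamini-Hochberg adjustment over the 2 pairs tested; 0.0286 is the smallest p that 4 libraries against 4 allow). Neither pair passed. Without R3 and R4 the NSP1 difference was 0.32, and without R1 and R2 it was 1.24. No ratio was formed for NFR1, because NFR1b was under the floor in all libraries, or for NSP2. Neither labels nor files say how reads that fit both copies were counted, so the balance of near-identical copies is uncertain.

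**Figure D4:**
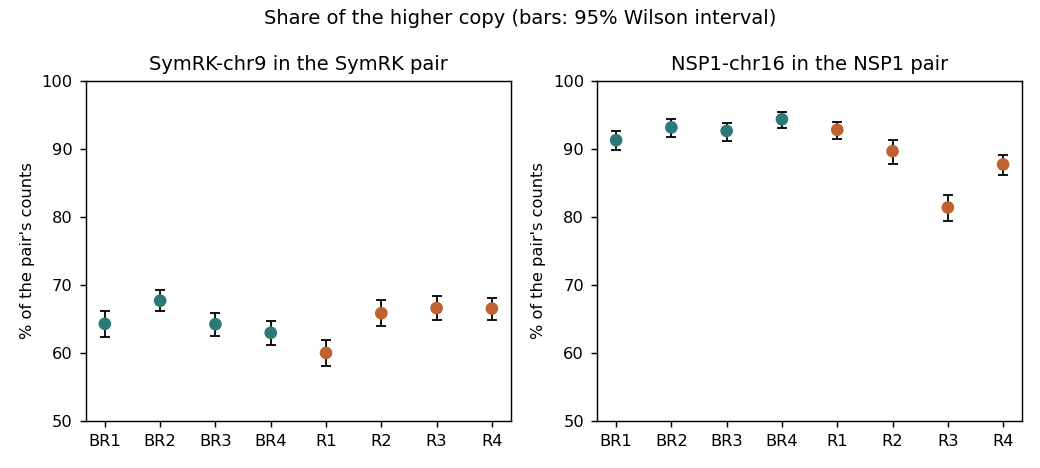
Share of the counts of the pair that fell on the higher copy in each library, with Wilson 95% intervals, for SymRK on chromosome 9 (left) and NSP1 on chromosome 16 (right); the axis runs from 50% to 100%. The SymRK share stays between 60.0% and 67.7%, whereas the NSP1 share is 91.3% to 94.4% in BR and falls to 81.4% in R3.

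Across the 8 genes, R3 or R4 held the highest FPKM of every gene except NFR1a, for which both held the lowest; for NFR1b that maximum was 2 counts. R3 and R4 also correlated more closely with each other than with R1 and R2 over all genes, and shared a positive length slope. With length trends removed the log2 fold change of BR over R was 1.02 for NFR1a and -1.05 for NSP1 on chromosome 7 (edgeR adjusted p = 0.362 and 0.0436), close to the values with them. For SymRK on chromosomes 9 and 1 it moved from -0.23 in both to -0.10 and -0.13. This setting compares BR with R and does not measure the gap between R3 and R4 and the other R libraries. What set R3 and R4 apart from R1 and R2 was not tested.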

How the data were processed

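Trizol RNA from 8 nodule libraries was sequenced, per the labels' protocols. The authors deposited raw counts per gene, and FPKM, which equal the deposited counts divided by gene length and library total. The submitters' processing notes list HTSeq 0.6.0, HISAT2 2.1.0, Bowtie2 2.2.3, CASAVA and TopHat2 with no role; strandedness and genome build are not given in the sources used here, and gene identifiers end in Wm82.a2.v1. The RefSeq gene table (Glycine_max_v4.0) matched 0 of 43517 identifiers. It lists 6 of the 9 member symbols, each on the chromosome in the identifier. The planned list of other signalling genes, the tissue markers and the search for genes of like pattern, which need descriptions, were therefore not used, and no sequences are shown. The named genes are all members.

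The test was that of edgeR 4.0.16 in R 4.3.3: filterByExpr (minimum count 10, minimum total 15), TMM, quasi-likelihood F test without covariates, Benjamini-Hochberg over 29508 genes, threshold 0.05. Only the edgeR fit was tested on simulated data, which were drawn from its own dispersion estimates. Log2 CPM used a prior count of 2, and SEs are the fold change over the root of F. Ratios of copies were compared by exact permutation in scipy 1.17.1. Members and lists were chosen with earlier results of these data known. Alternatives were DESeq2 1.42.0, limma-voom (limma 3.58.1), RLE, upper-quartile and total-count scaling, other filters, a replicate block, libraries left out and limma on log2(FPKM + 1) or log2(FPKM + 0.1). Removal of length trends and the unfiltered NFR5a values without 2 R libraries were chosen after seeing the data. Between replicates, chi-square over degrees of freedom was at least 6.77 in BR and 11.7 in R, so no 2 libraries agreed within counting noise, as repeat deposits of a single library would; whether they are separate plants is not settled by this.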

Additional observations from a re-analysis of the deposited data

Results flagged for a closer look

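In 22 groups of 4 libraries (8 genes, the SymRK and NSP1 ratios and the receptor-to-GRAS ratio, each in BR and in R) 4 held a library whose gap to the nearest other exceeded the 95% critical value of Dixon for 4 values, as a share of the range. For continuous values chance gives about 1 in 20; this does not hold for NFR1b, where any single value above 0 meets the criterion. NFR1a was 2.72 CPM in BR2, where the other BR libraries had 1.64 to 1.73 CPM (TMM-scaled). NFR1b was 0.0631 CPM in BR1 and 0.145 CPM in R4, which stand for 1 and 2 counts where the other libraries of each group had 0. The log2 ratio of the SymRK copies was 0.42 in R1 and 0.78 to 0.83 in the other R libraries.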

How the results depend on the processing

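Leaving out 1 library gave 2848 to 7333 calls over all genes in place of 5409; without R3 and R4 there were 3554 and without R1 and R2 10237, with fewer libraries in each, and the cause was not tested. The higher share of the calls was 43.5% with TMM, 57.7% with upper-quartile and 71.2% with total-count scaling. Of the genes described, 1 was called. None (0) was called with limma-voom, total counts, the replicate block, FPKM with either pseudocount or without R3 and R4, 2 without R1 and R2, and 0 to 2 without 1 library. NSP1 on chromosome 7 passed in 10 of 21 alternatives (adjusted p from 0.00234 to 0.297); with FPKM its log2 fold change was -0.66 (pseudocount 1) and -0.81 (0.1). NFR1a passed in 2 of 21, without R2 and without R1 and R2, and its log2 fold change was 0.15 to 3.68. Signs turned for unfiltered NFR5a without R3 and R4 (1.06), for SymRK on chromosome 9 without R3 and R4 (0.027), for NSP2 without R2 (-0.18; -0.18 to 0.77 without 1 library) and without R1 and R2 (-0.40), and for the SymRK ratio, near 0 throughout, without R1 and R2 (-0.11); without 1 library that ratio difference was -0.096 to 0.040. The NSP1 ratio difference was 0.51 to 1.03 without 1 library and the receptor-to-GRAS difference 0.017 to 0.21, and 0.32 with the mean of log2(FPKM + 0.1) of each class in place of the sum. The SymRK copy on chromosome 1 and NSP1 on chromosome 16 kept their sign and stayed uncalled in 21 alternatives. With the replicate block 4633 genes were called, 4140 of them shared with the fit without it, and the copy ratios gave p = 1 for SymRK and p = 0.25 for NSP1 (exact sign flips). Libraries that share a number deviated from their group means with correlations of 0.065, 0.086, -0.084 and 0.09, so the numbers were not taken as pairs. Depth limits NFR1b, NFR5a and NSP2 most, with 3, 33 and 88 counts in all. Alternatives for the list of other signalling genes were not run, since the list could not be used.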
